A study of Homo sapiens with 8 samples.

Results

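Depletion of NuMA was compared with wild type within the OGAP pull-down, the part of the study in which DNA fragments carrying oxidative base damage were enriched and sequenced. The cells were RPE1, an hTERT-immortalised human line from retinal pigment epithelium. The comparison rested on 4 of the series' 8 libraries, chosen by their labels: 2 WT OGAP libraries of wild type cells that had no doxycyclin, and 2 KD OGAP libraries of NuMA (TDIF)-KD cells taken post-doxycyclin. The other 4 libraries were input DNA of the same states, without pull-down, and served as the background. Every KD library came from doxycyclin-treated cells and no WT library did, so the agent and the depletion cannot be told apart. Whether the 2 libraries of a state stem from independent cultures is not in the labels, so the p-values reflect library-to-library spread that could be technical alone.

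NuMA, encoded by NUMA1, is a nuclear protein that gathers microtubules at the spindle poles during mitosis and spreads through the nucleus in interphase. Oxidative damage to DNA falls most readily on guanine, and its best known product is 8-oxoguanine. The glycosylase OGG1 removes that base and leaves an abasic site, which is cut, filled and sealed by base excision and single-strand break repair. The series states as its purpose to ask how loss of NuMA alters the level of such damage across the genome.

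The values were whole-number counts of reads in 19957 promoter windows, each reaching 1000 bp to either side of an annotated gene start (hg38). Of these, 14882 windows could be named by position, and the others are given by Ensembl identifier. The WT OGAP libraries held 368593 and 397173 reads in windows and the KD OGAP libraries 560174 and 449833, against 645276 to 771138 in the inputs. Medians per window were 17 and 18 reads for WT OGAP and 28 and 22 for KD OGAP, so differences in single windows of this size were detectable only where they were large. Levels are given as reads scaled to 1000000 window reads per library (CPM). A change is a log2 ratio of KD to WT with an approximate standard error. All changes are changes in the share of window reads, and the total yield of damaged DNA was not analysed here. The NUMA1 window (chr11:72079694-72081694, minus strand) had 6 and 5 reads in the WT pull-down and 11 and 4 in the KD pull-down. Its inputs held 2 and 1 reads in WT and 8 and 16 in KD. This window overlaps another and was too shallow to be tested. As a count of DNA it checks neither the depletion nor the cell type.

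Few single promoters passed the threshold. Of 16476 tested windows, 11 passed an adjusted p of 0.05 (0.0668%), by edgeR's quasi-likelihood test with Benjamini-Hochberg adjustment. In KD, 4 rose (0.0243%) and 7 fell (0.0425%). The windows that rose were those of AKIRIN1, NCF4, SERPINB1 and ENSG00000174145. The windows that fell were those of USP11, EXOC8, DHPS, TOR1B, DEFB130A, ENSG00000161813 and ENSG00000141086. The inputs were tested in another fit, of all 8 libraries, in which 6 windows passed for OGAP. There, KD against WT in input gave 0 calls among 17130 windows, with the lowest adjusted p at 0.999 in edgeR. At an unadjusted p under 0.05 there were 756 input windows (4.41%). DESeq2 also gave 0 input calls (118 higher and 94 lower at an unadjusted p under 0.05). Among the OGAP windows, 654 were higher at an unadjusted p under 0.05 (3.97%) and 925 were lower (5.61%). The higher ones were 41.4% of that set, but 61.2% with upper quartile scaling and 53.7% with total count scaling, which moved the median log2 change of all windows from 0.01 to 0.10 and 0.06.

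**Figure D1:**
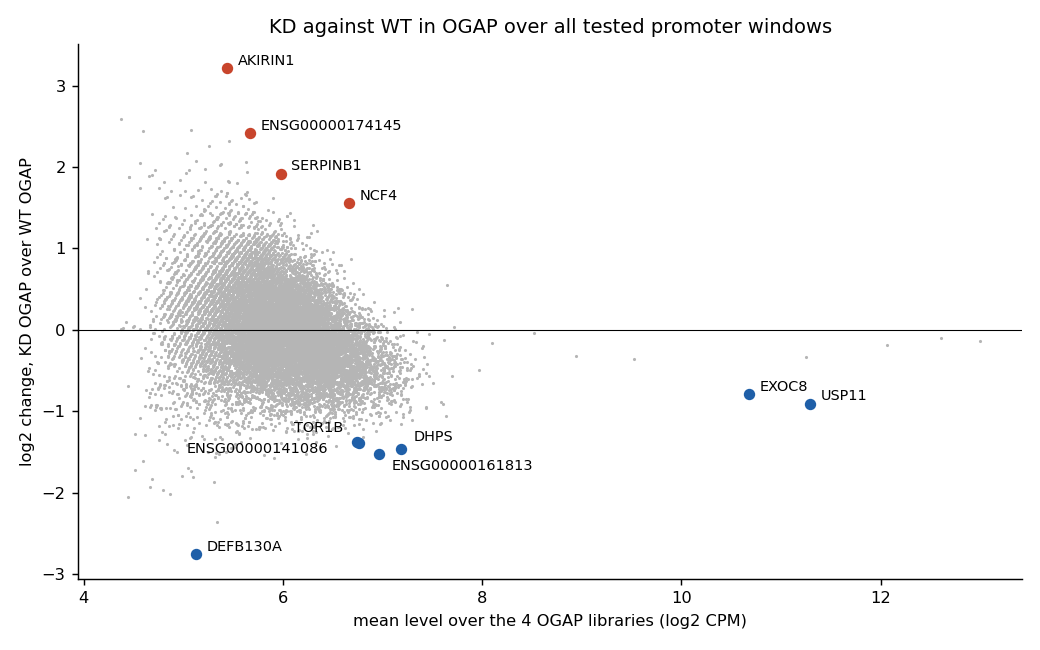
Each grey point is 1 of the 16476 tested promoter windows, with its mean level over the 4 OGAP libraries (log2 CPM) on the x axis and its log2 change, KD over WT, on the y axis. Red points are the 4 windows that rose and blue points the 7 that fell; USP11 and EXOC8 stand far to the right, beside the mitochondrial windows.

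The 2 most heavily pulled down nuclear promoters both fell. USP11 encodes a deubiquitinase known for a role in homologous recombination. Its window (chrX:47231689-47233689, plus strand) had 1338 and 1052 reads in the WT pull-down and 990 and 761 in the deeper KD pull-down. In CPM the KD libraries lay below both WT libraries, at a log2 change of -0.91 ± 0.17 (adjusted p = 0.00307). The inputs held only 77 and 55 reads (WT) and 39 and 49 (KD) in the same window, and the log2 change there was -0.43 ± 0.25. EXOC8 encodes a subunit of the exocyst, the complex that tethers secretory vesicles to the plasma membrane. Its window (chr1:231336853-231338853, minus strand) had 832 and 694 reads in the WT pull-down and 688 and 525 in the KD pull-down, a log2 change of -0.79 ± 0.19 (adjusted p = 0.0436). The groups did not overlap in CPM, though KD was below WT in this way in 20.2% of all tested windows. The EXOC8 input reads were 42 and 15 in WT and 13 and 13 in KD, with a log2 change of -0.97 ± 0.37, as large as that in OGAP. The EXOC8 window also overlaps a neighbouring window, so how its reads were assigned is uncertain.

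The other windows that fell stood above the input level in WT OGAP and nearer to it in KD OGAP. Picking windows that fell favours high WT OGAP values, so this position is partly set by the selection. DHPS encodes deoxyhypusine synthase, which starts the hypusine modification of the translation factor eIF5A. Its window (chr19:12680903-12682903, minus strand) had 75 and 80 reads in the WT pull-down and 34 and 42 in the KD pull-down, with 44 to 57 in the inputs. The log2 change was -1.46 ± 0.30 (adjusted p = 0.00512), and both KD libraries lay under both WT libraries. TOR1B encodes a torsin ATPase of the endoplasmic reticulum and nuclear envelope. Its window (chr9:129802152-129804152, plus strand) had 59 and 55 reads in the WT pull-down and 39 and 21 in the KD pull-down, a log2 change of -1.39 ± 0.32 (adjusted p = 0.0436). The ENSG00000161813 window (chr12:50391382-50393382, plus strand) went from 57 and 78 reads to 36 and 28, a log2 change of -1.52 ± 0.31 (adjusted p = 0.00512). The ENSG00000141086 window (chr16:67931415-67933415, minus strand) went from 51 and 61 reads to 36 and 23, a log2 change of -1.38 ± 0.33 (adjusted p = 0.0436). In each of these both KD libraries were below both WT libraries in CPM, as in 20.2% of all tested windows. DEFB130A encodes a beta-defensin, an antimicrobial peptide, and belongs to a family with near-identical copies, so its count is uncertain. Its window (chr8:12317317-12319317, minus strand) had 20 and 22 reads in the WT pull-down and 0 and 8 in the KD pull-down, a log2 change of -2.76 ± 0.66 (adjusted p = 0.0436).

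The windows that rose were depleted below input in WT OGAP. They were picked by these same WT values, so this position is no separate evidence of a move toward input. AKIRIN1 encodes a nuclear protein of the akirin family. Its window (chr1:38990222-38992222, plus strand) had only 3 and 2 reads in the WT pull-down, against 37 and 29 in the KD pull-down and 28 to 47 in the inputs. The log2 change was 3.21 ± 0.64 (adjusted p = 0.00512). With so few WT reads, the pooled ratio of KD to WT in CPM was 10.01, with an exact 95% interval of 4.08 to 31.8 that covers counting error only. NCF4 encodes p40phox, a cytosolic subunit of the phagocyte NADPH oxidase, which makes superoxide. Its window (chr22:36859987-36861987, plus strand) had 17 and 18 reads in the WT pull-down and 83 and 59 in the KD pull-down, a log2 change of 1.56 ± 0.35 (adjusted p = 0.0273). Its inputs held 53 to 63 reads. SERPINB1 encodes an inhibitor of neutrophil elastase. Its window (chr6:2841007-2843007, minus strand) had 15 and 2 reads in the WT pull-down and 40 and 48 in the KD pull-down, a log2 change of 1.92 ± 0.46 (adjusted p = 0.0436). The ENSG00000174145 window (chr4:37243219-37245219, plus strand) had 2 and 8 reads in the WT pull-down and 57 and 19 in the KD pull-down, a log2 change of 2.41 ± 0.54 (adjusted p = 0.0273). In all 4 of these windows both KD libraries exceeded both WT libraries in CPM, as they did in 19.5% of all tested windows. For AKIRIN1 and NCF4 they also exceeded all 4 inputs.

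**Figure D2:**
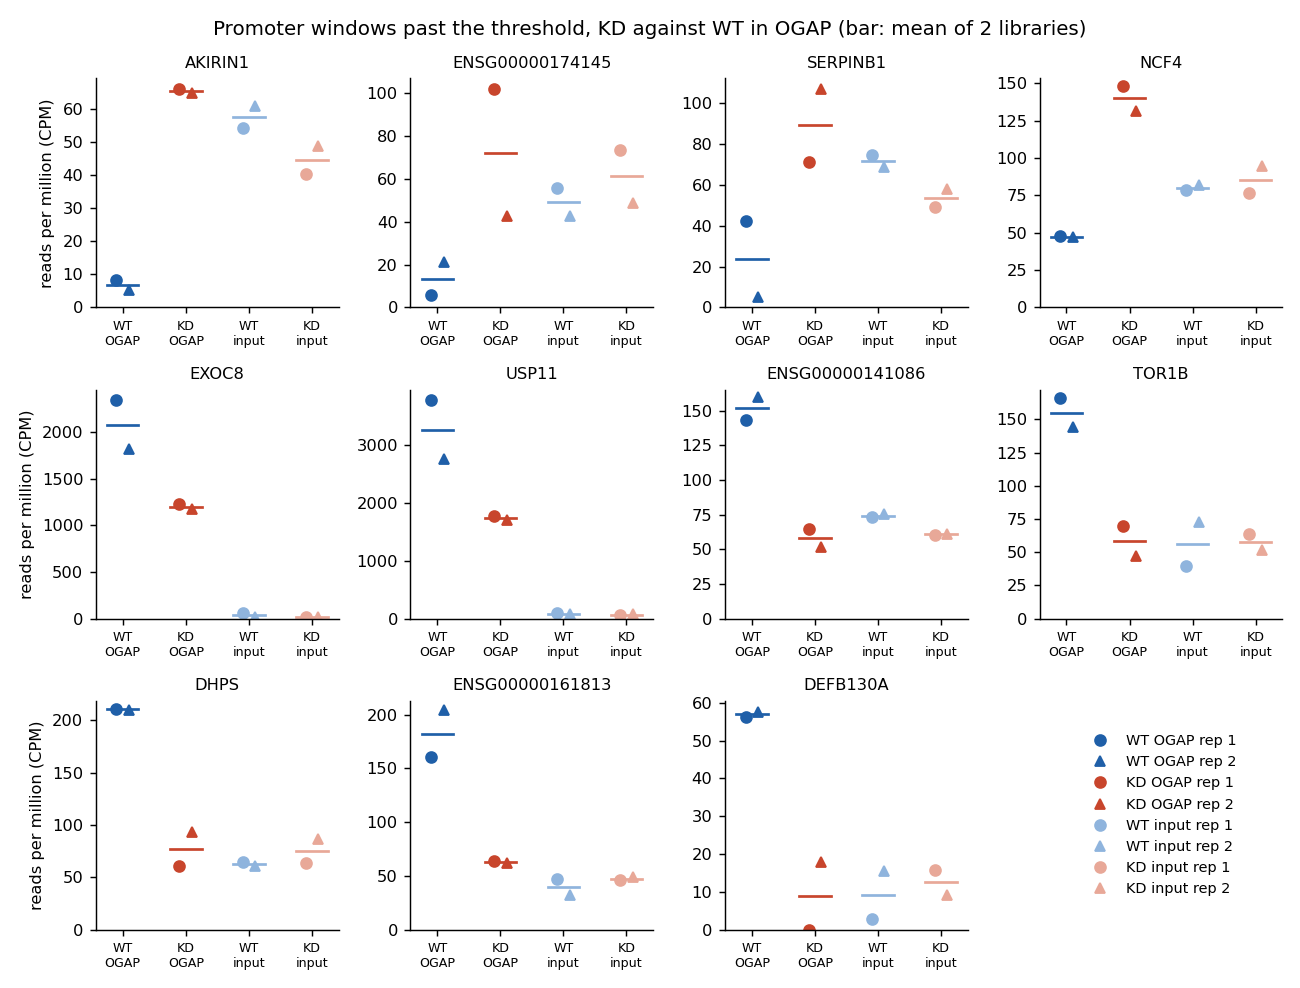
Scaled reads (CPM, y axis from 0, scale set per panel) in the 11 promoter windows past the threshold, for WT OGAP, KD OGAP, WT input and KD input on the x axis. Circles are replicate 1, triangles replicate 2 and bars the mean of 2. The KD OGAP mean lies nearer to the inputs than the WT OGAP mean in every panel but NCF4. There KD OGAP stands above all 4 inputs. The windows were picked by these same OGAP values.

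Each of these calls depended on single libraries. Without WT OGAP replicate 1, only SERPINB1 passed, and without WT OGAP replicate 2 none did. Without KD OGAP replicate 1, USP11 and EXOC8 passed, and without KD OGAP replicate 2, 7 of the 11 did, the exceptions being AKIRIN1, TOR1B, ENSG00000141086 and SERPINB1. No direction turned: over these settings the log2 change ranged from -1.12 to -0.66 for USP11, from -1.79 to -1.16 for DHPS, from 2.91 to 3.59 for AKIRIN1 and from 1.06 to 4.02 for SERPINB1. It ranged from 1.64 to 3.64 for ENSG00000174145. The DEFB130A window held 0 reads in the KD group once KD OGAP replicate 2 was left out. DESeq2 called only USP11 and EXOC8, and counts thinned to the depth of the shallowest OGAP library gave 0 calls (586 windows higher and 784 lower at an unadjusted p under 0.05). The log2 changes after thinning were close to those above, at -0.91 for USP11, -1.52 for DHPS, 1.52 for NCF4 and 2.999 for AKIRIN1, and that of DEFB130A was -3.29.

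The promoters of the 5 called windows with an entry in the RefSeq table (GRCh38.p14) are shown because guanine runs are where oxidation is known to concentrate. Each spans 250 bases before to 50 after a start given for the gene in that table, 5′ to 3′ on the gene's own strand. This start need not be the one on which the window is centred. For DHPS and USP11 it lies away from the centre, though each stretch is within its window. Capitals mark every GGG or CCC, read left to right without overlap. They lie at chrX:47232759-47233058 (plus, USP11), chr1:231337803-231338102 (minus, EXOC8), chr19:12681321-12681620 (minus, DHPS), chr1:38991026-38991325 (plus, AKIRIN1) and chr6:2841814-2842113 (minus, SERPINB1).
USP11: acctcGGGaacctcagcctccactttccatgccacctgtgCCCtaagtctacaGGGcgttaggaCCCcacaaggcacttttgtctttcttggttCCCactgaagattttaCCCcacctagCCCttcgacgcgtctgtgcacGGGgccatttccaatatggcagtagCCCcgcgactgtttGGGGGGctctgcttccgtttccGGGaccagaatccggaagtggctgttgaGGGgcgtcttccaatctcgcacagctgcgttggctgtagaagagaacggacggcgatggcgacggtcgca
EXOC8: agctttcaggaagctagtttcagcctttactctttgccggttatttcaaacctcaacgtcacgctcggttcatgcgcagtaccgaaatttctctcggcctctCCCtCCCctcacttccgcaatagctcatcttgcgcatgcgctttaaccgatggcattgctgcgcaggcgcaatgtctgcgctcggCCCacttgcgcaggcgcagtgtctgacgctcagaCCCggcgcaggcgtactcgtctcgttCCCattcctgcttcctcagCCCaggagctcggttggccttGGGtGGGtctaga
DHPS: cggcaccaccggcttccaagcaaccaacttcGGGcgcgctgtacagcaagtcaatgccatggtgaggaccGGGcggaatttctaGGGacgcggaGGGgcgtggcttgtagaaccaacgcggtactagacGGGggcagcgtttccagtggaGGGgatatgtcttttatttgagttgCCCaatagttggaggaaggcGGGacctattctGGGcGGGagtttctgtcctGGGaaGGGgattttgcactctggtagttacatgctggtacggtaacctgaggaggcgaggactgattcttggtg
AKIRIN1: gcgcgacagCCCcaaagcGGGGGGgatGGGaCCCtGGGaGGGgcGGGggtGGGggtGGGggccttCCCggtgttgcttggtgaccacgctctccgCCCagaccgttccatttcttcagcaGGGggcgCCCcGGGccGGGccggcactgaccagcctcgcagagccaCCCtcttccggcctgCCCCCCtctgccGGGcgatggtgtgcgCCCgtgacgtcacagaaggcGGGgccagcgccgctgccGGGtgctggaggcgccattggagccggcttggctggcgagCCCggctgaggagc
SERPINB1: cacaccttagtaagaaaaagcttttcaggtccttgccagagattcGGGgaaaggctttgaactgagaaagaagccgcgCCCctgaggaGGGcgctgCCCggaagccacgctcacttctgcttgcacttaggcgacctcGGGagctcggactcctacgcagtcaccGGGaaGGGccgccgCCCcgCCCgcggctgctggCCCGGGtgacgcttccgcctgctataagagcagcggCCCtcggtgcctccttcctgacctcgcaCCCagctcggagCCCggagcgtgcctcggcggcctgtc
The promoters of the windows that fell held 13 (USP11), 8 (EXOC8) and 12 (DHPS) such triplets. Those of the windows that rose held 24 (AKIRIN1) and 14 (SERPINB1). Of 35116 promoters of this length, 99.48% held at least 1 triplet, the median was 13, and 8.965% held as many as AKIRIN1. The G+C content was 74.33% for AKIRIN1 and 65.67% for SERPINB1, and 58.33%, 57.67% and 56.67% for USP11, EXOC8 and DHPS, against a median of 58.67% over all promoters. A triplet is a description of the sequence and not a damage site.

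Below the threshold, the windows of lowest p are given as values only. The named windows given here had at least the median of 24 mean reads, overlapped no other window, and had both KD libraries on the same side of both WT libraries. Such separation was common: both KD libraries were above both WT libraries in 3206 windows (19.5%) and below them in 3333 (20.2%). On the higher side, PPP1R16B, a regulatory subunit of protein phosphatase 1, had 10 and 9 reads in the WT pull-down and 54 and 28 in the KD pull-down, with 36 to 65 in the inputs (log2 change 1.63 ± 0.45, adjusted p = 0.164). ATP10A, a phospholipid flippase, held 10 and 14 against 56 and 34 (1.44 ± 0.42). LCK, the Src-family kinase of T cells, held 8 and 16 against 56 and 32 (1.40 ± 0.42). CKM, the muscle creatine kinase, held 9 and 15 against 47 and 40 (1.41 ± 0.42). TNNI3, cardiac troponin I, held 14 and 19 against 57 and 48 (1.22 ± 0.38). MYH9, the non-muscle myosin IIA heavy chain, held 8 and 18 against 50 and 41 (1.36 ± 0.41), with 45 to 104 reads in the inputs. EMX1, a homeobox factor of the forebrain, TSPAN33, SWSAP1 and KAZALD1 had log2 changes of 1.29, 1.44, 1.28 and 1.2. The adjusted p of these 10 windows ran from 0.164 to 0.242.

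On the lower side, GDPD4 had 44 and 36 reads in the WT pull-down and 23 and 15 in the KD pull-down, with 18 to 37 in the inputs (log2 change -1.53 ± 0.38, adjusted p = 0.0668). TNFRSF13C, the BAFF receptor of B cells, held 69 and 46 against 32 and 31 (-1.32 ± 0.32, adjusted p = 0.0552). ZNF554, a zinc finger gene of chromosome 19, held 50 and 76 against 43 and 34 (-1.15 ± 0.31, adjusted p = 0.118). ESS2 held 67 and 59 against 42 and 36 (-1.14 ± 0.30), and GHDC 69 and 64 against 36 and 47 (-1.11 ± 0.30). CNKSR1, a scaffold of Ras signalling, held 82 and 62 against 43 and 50 (-1.07 ± 0.29). PDCD2L, GPKOW and MAJIN had log2 changes of -1.21, -1.17 and -1.07. WT OGAP stood above the input level in CPM in these windows, which were picked by the same WT OGAP values. The highest levels were at mitochondrial ND5, ND1 and COX1, in windows that overlap others, and these levels were not an enrichment over input. For ND5, inputs held 10160 to 12280 CPM, against 7137 to 8596 in OGAP. For COX1 they held 5040 to 5544, against 3718 to 4880, and for ND1 input and OGAP overlapped. COX2, also in an overlapping window, stood above input in WT OGAP. These subunits of the respiratory chain had log2 changes of -0.13 (ND5), -0.10 (ND1), -0.18 (COX1) and -0.33 (COX2), with adjusted p from 0.534 to 0.878. The mitochondrial ND5 window had 3054 and 3230 reads in the WT pull-down and 4707 and 3198 in the KD pull-down.

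Over nuclear promoters as a set, reads moved toward input, though not in every window. The spread of reads over windows was compared after all libraries were thinned to an equal total of 353288 reads, in 15655 nuclear windows that overlap no other. Windows with at least 3 times the library's median numbered 115 and 179 in WT OGAP, but 5 and 13 in KD OGAP. The 4 inputs had 3 to 12. The KD libraries lay far below both WT libraries and within or next to the input range, although 2 libraries against 2 cannot give an exact permutation p under 0.33. Both WT libraries shared 56 such windows, and both KD libraries shared 3: USP11, NBPF1 and DBF4B. NBPF1, of a gene family rich in near-identical copies, was also the single window at that height in all 4 inputs. Very low windows were also more frequent in WT than in KD: 305 and 151 windows held under 0.25 times the median in WT OGAP, against 92 and 95 in KD OGAP, and in the inputs 84 to 272 did. Without USP11, the variance over the mean of the thinned counts was 5.86 and 5.84 for the WT pull-down and 3.09 and 3.55 for the KD pull-down, and from 2.89 to 4.23 for input.

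Sorting windows by 1 WT OGAP library and reading the change from the other gave the same picture in values that the sorting did not use. Windows were put in quintiles by WT OGAP replicate 1 over WT input, and KD OGAP was compared with WT OGAP replicate 2. The log2 ratio of summed CPM was 0.25 in the lowest quintile and 0.19, 0.08 and -0.06 in the next 3. It was -0.31 in the highest quintile. Sorted by replicate 2 and compared with replicate 1, it ran from 0.20 to -0.28. The inputs shifted the other way over the same quintiles, and WT input was part of the sorting. KD input over WT input ran from -0.12 to 0.17 in the first sorting and from -0.13 to 0.18 in the second. KD OGAP replicate 1 moved further than replicate 2, from 0.30 to -0.39 against 0.19 to -0.23 in the first sorting. Both KD libraries were higher in the windows that WT pulled down least and lower in those it pulled down most. The KD OGAP libraries still followed the WT order: over KD input they stood at -0.21 and -0.31 in the lowest quintile and at 0.34 and 0.49 in the highest.

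**Figure D3:**
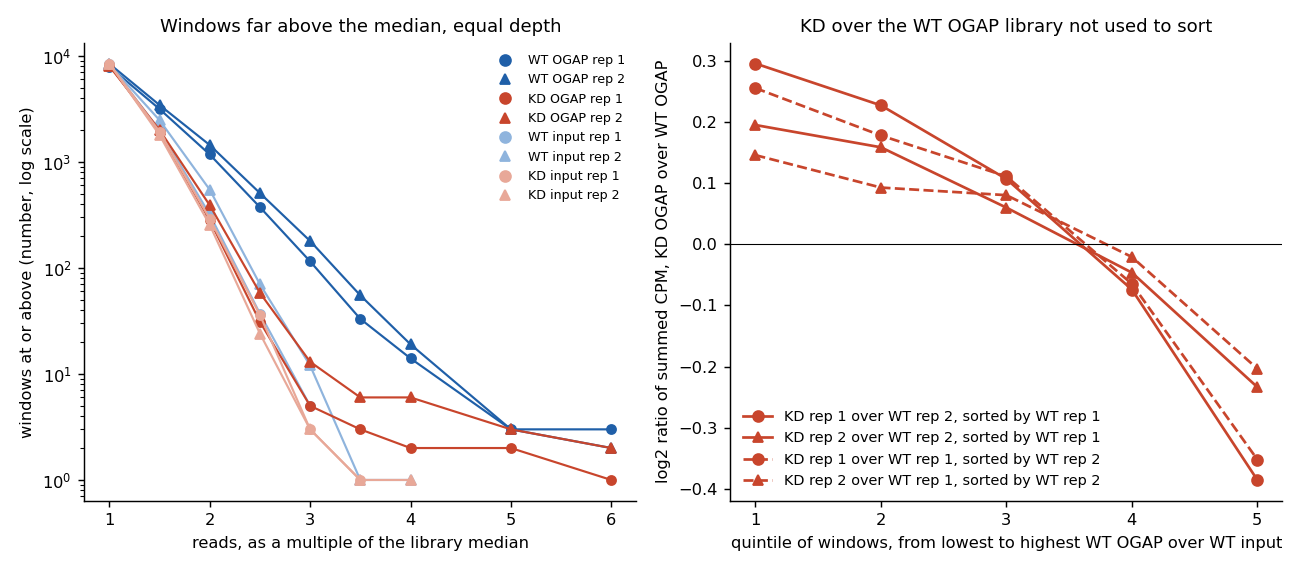
Left: number of windows (log scale) at or above a multiple of the library's median (x axis), after thinning all 8 libraries to an equal total; at 3 times the median, WT OGAP has 115 and 179 windows and KD OGAP 5 and 13. Right: log2 ratio of summed CPM, KD OGAP over the WT OGAP library not used to sort, in quintiles from the lowest to the highest WT OGAP over input, for each KD library and either sorting; all 4 lines fall, from between 0.15 and 0.30 to between -0.39 and -0.20.

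Gene-poor chromosomes mostly held a larger share of the promoter reads in KD OGAP, and gene-dense ones mostly a smaller share. Shares of KD and WT OGAP did not overlap for 17 of 23 chromosomes (73.9%), with 11 higher and 6 lower in KD, against 8 higher and 5 lower in the inputs. Chromosome 19, the most gene-dense and the home of large zinc finger clusters, held 9.41% and 9.36% of reads in WT OGAP and 8.33% and 8.51% in KD OGAP. Its inputs lay between 7.86% and 8.15%, with KD below WT there too by a smaller margin. The median log2 change of its 1192 tested windows was -0.17, and 11.2% of them were lower at an unadjusted p under 0.05, beside 5.61% of all windows. Chromosome 18, which is gene-poor, held 1.003% and 1.009% in WT OGAP and 1.14% and 1.16% in KD OGAP, with inputs from 1.13% to 1.16% and a median log2 change of 0.17. Chromosomes 13 and 21 had medians of 0.11 and 0.12, and chromosomes 16, 17 and 22 had -0.11, -0.06 and -0.06. In the inputs chromosomes 16 and 17 also had medians below 0, at -0.06 and -0.03, and chromosome 22 stood lower there than in OGAP, at -0.08. Chromosome 11, which is gene-dense, went against this order with a median of 0.08. The X chromosome went from 3.72% and 3.65% to 3.56% and 3.52%, but the USP11 window carried that difference. Without its window the X shares were 3.35% and 3.39% in WT OGAP and 3.39% and 3.35% in KD OGAP, which overlap, and the median of the 682 X windows was -0.01.

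**Figure D4:**
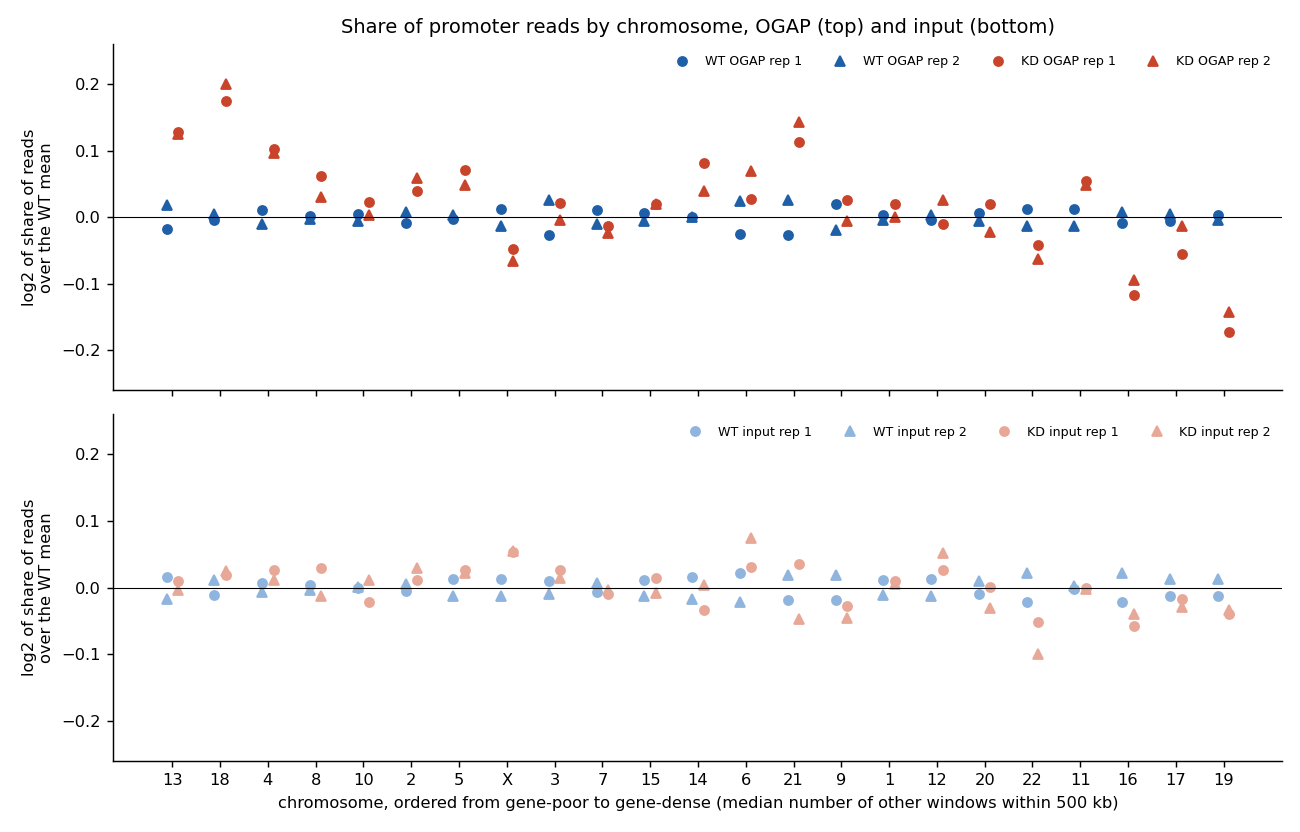
Share of promoter reads on each chromosome in each library, as a log2 ratio to the mean of the 2 WT libraries of the same kind (y axis), for OGAP (top) and input (bottom); chromosomes run from gene-poor to gene-dense on the x axis. Circles are replicate 1 and triangles replicate 2; in OGAP the KD points are highest on chromosome 18 and lowest on chromosome 19, and in the inputs the same chromosomes stay nearer to 0.

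Gene density was also read window by window, as the number of other windows within 500 kb, in quintiles that kept windows of equal number together. In the sparsest quintile (3686 windows, 0 to 5 neighbours) the median log2 change was 0.11, and the share of OGAP reads went from 17.5% and 17.7% in WT to 19.4% and 19.2% in KD. In the densest quintile (3280 windows, 27 to 71 neighbours) the median was -0.05, and the share went from 23.1% and 23.1% to 22.2% and 22.1%. The groups did not overlap in either quintile. In the inputs these quintiles had medians of 0.04 and -0.06, in the same direction. Within the densest quintile, the 823 windows of chromosome 19 had a median of -0.16 and the 2457 windows of other chromosomes -0.01. The chromosome 19 median was below that of other chromosomes in every quintile. It was -0.06 in the sparsest (8 windows) and lowest, at -0.30, in the middle one (33 windows). Windows that overlap a neighbour, 814 of the nuclear ones tested, had a median of -0.14, beside 0.01 for the rest.

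Around gene starts, the dip in pulled-down coverage was shallower after depletion. Here the value is the deposited coverage signal summed over genes, divided by its level at the outer positions of the same profile, since neither its scale nor the spacing of its positions is stated. Over the central 1000 positions this ratio was 0.861 and 0.842 in WT OGAP and 1.01 and 0.934 in KD OGAP. Both KD libraries stood above both WT libraries and below the inputs, at 1.13 to 1.28. The difference of 0.119 gave an exact two-sided permutation p of 0.33, the smallest that 2 against 2 libraries allow. It was largest over the 500 positions after the start, where WT OGAP stood at 0.820 ± 0.021 (SD, n = 2) and KD OGAP at 0.969 ± 0.073. Input moved the other way there, with KD lower than WT by 0.103, mostly through WT input replicate 2.

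**Figure D5:**
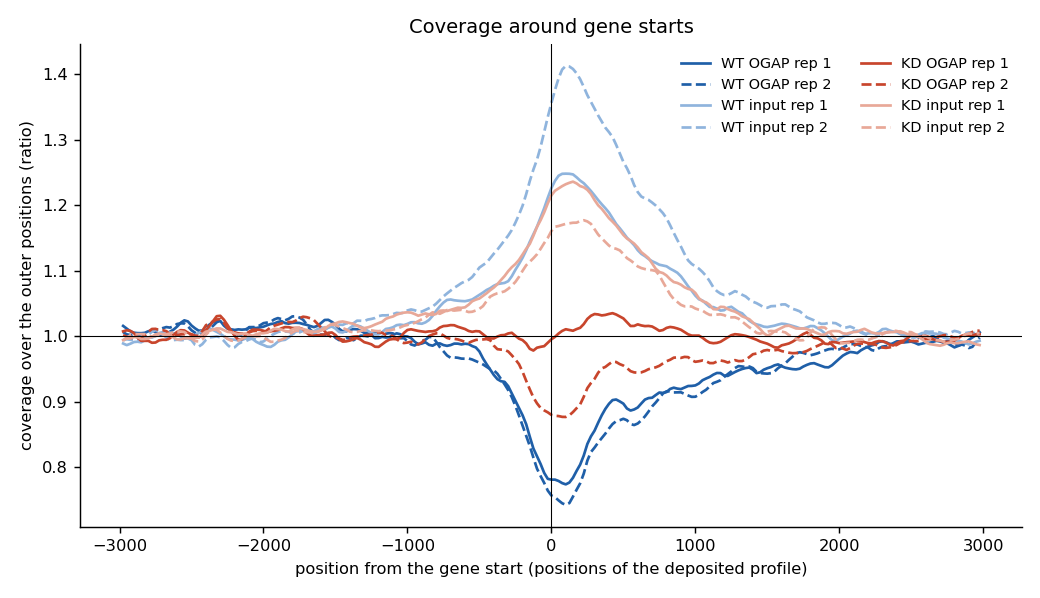
Coverage summed over genes, as a ratio to the outer positions (y axis), against position from the gene start (x axis, positions of the deposited profile), smoothed over 50 positions; solid lines are replicate 1 and dashed lines replicate 2. WT OGAP dips at the start, KD OGAP lies nearer to 1, and the 4 inputs peak there.

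When the effect on OGAP was set against that on input in 1 model of all 8 libraries, AKIRIN1 was the only window past the threshold (1 of 17130, 0.00584%). Its difference of log2 changes was 3.60 ± 0.71 (adjusted p = 0.0303). At an unadjusted p under 0.05 there were 1395 windows (8.14%), against 756 for input alone. The differences for DHPS and USP11 were -1.71 (adjusted p = 0.26) and -0.48 ± 0.31 (adjusted p = 0.702), and that for EXOC8 was 0.18. The AKIRIN1 call was lost in DESeq2, where 0 windows passed, with 244 higher and 346 lower at an unadjusted p under 0.05. With a library left out, it was also lost in 6 of 8 settings: without WT OGAP replicate 2, either KD OGAP library, WT input replicate 2 or either KD input library. In these its adjusted p in edgeR ran from 0.0694 to 0.17 and the difference from 3.29 to 3.74. Without WT OGAP replicate 1, 6 windows passed.

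No tested member of the DNA repair lists passed the threshold. USP11, which did, was on none of them. Tested were 13 of 21 listed genes of glycosylases and base excision repair and 5 of 15 of single-strand break repair. The other repair lists had 16 of 36 (double-strand breaks) and 13 of 30 (nucleotide excision and mismatch repair) tested. In the counts that follow, higher and lower mean an unadjusted p under 0.05, to be read beside 3.97% and 5.61% of all windows and a median log2 change of 0.01. A list median within 0.09 of 0 has no settled sign, since the scalings above moved all windows by about that much. Of 13 tested genes of DNA glycosylases and base excision repair, 0 were higher and 0 lower. Their median was -0.13 in OGAP and -0.09 in input. OGG1 had 40 and 50 reads in the WT pull-down and 48 and 34 in the KD pull-down (log2 change -0.59 ± 0.32, adjusted p = 0.56). NEIL1, a glycosylase for oxidised pyrimidines, held 46 and 39 against 38 and 39 (-0.59 ± 0.33). MPG, the alkyladenine glycosylase, whose window overlaps a neighbour, went from 1 and 8 reads to 19 and 12 (1.31 ± 0.73).

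Of 5 tested genes of single-strand break repair, 1 was higher and 1 lower, with a median of 0.39 (-0.07 in input). PARP1, the break sensor that makes poly(ADP-ribose), had 63 and 69 reads in the WT pull-down and 52 and 57 in the KD pull-down (log2 change -0.71 ± 0.29, adjusted p = 0.399). Its partner HPF1, which directs that modification to serine, held 9 and 3 against 31 and 16 (1.47 ± 0.60, adjusted p = 0.399). Double-strand break repair had 2 higher and 3 lower of 16, with a median of -0.20 (-0.007 in input). BRCA1 and RNF168, which act in the choice of repair pathway, had log2 changes of -1.96 ± 0.70 and -0.99 ± 0.36. The helicase BLM and the nuclease EXO1, which act in end resection, had 1.04 ± 0.47 and 1.0 ± 0.48. The BRCA1 window held 15 and 14 reads against 6 and 4 and overlaps a neighbour. Nucleotide excision and mismatch repair had 0 higher and 0 lower of 13, with a median of -0.33 in OGAP and 0.12 in input, and its lowest p was for ERCC3, a helicase of TFIIH, at -0.70 ± 0.38. ERCC3 held 17 and 47 reads in the WT pull-down and 36 and 18 in the KD pull-down, which overlap, and its log2 change was -1.20 without WT OGAP replicate 1 and 0.143 without WT OGAP replicate 2.

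Among genes that set the redox state, NCF4 was the single member of any list past the threshold. The 8 tested NADPH oxidase subunits had 1 higher and 1 lower. RAC1, the small GTPase that activates the oxidase, had 40 and 41 reads in the WT pull-down and 35 and 26 in the KD pull-down (log2 change -0.86 ± 0.35, adjusted p = 0.398), and NOX3 was at 0.65 ± 0.40. The 36 tested NRF2 targets and antioxidant enzymes had 0 higher and 2 lower, with a median of -0.16 (0.06 in input). The lower ones were PRDX3, the mitochondrial peroxiredoxin, with 73 and 52 reads against 44 and 53 (-0.80 ± 0.30), and TKT, transketolase, at -0.73 ± 0.35. FTL, the ferritin light chain, and SRXN1, sulfiredoxin, had 0.77 ± 0.43 and 0.71 ± 0.44. Of 38 nuclear oxidative phosphorylation genes, 1 was higher and 6 lower (2.63% and 15.8%), with a median of -0.09. SDHB, a subunit of succinate dehydrogenase, held 65 and 49 reads against 43 and 33 (-1.04 ± 0.31, adjusted p = 0.189). ATP5MK and ATP5ME, small subunits of ATP synthase, had -1.81 ± 0.61 and 1.41 ± 0.64, in overlapping windows.

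Of 21 tested p53 targets, 0 were higher and 4 lower, although the median was 0.01. MDM2, the ubiquitin ligase that restrains p53, had 39 and 34 reads in the WT pull-down and 24 and 18 in the KD pull-down (log2 change -1.25 ± 0.38, adjusted p = 0.209). CDKN1A, the cell cycle inhibitor p21, held 31 and 56 against 25 and 37 (-0.91 ± 0.34, adjusted p = 0.36). Both KD libraries were below both WT libraries in each, as in 20.2% of all tested windows. CCNG1, cyclin G1, held 14 and 10 against 37 and 22 (0.82 ± 0.47). The 31 immediate early genes, which respond within minutes to growth factors and stress, had 1 higher and 2 lower. Above 0 were 22 of 31, beside 8343 of 16476 over all windows, and the median was 0.25, against -0.22 in input. DUSP4, a phosphatase of MAP kinases, and KLF10 had 1.18 ± 0.46 and 0.93 ± 0.48, while IER3 and NR4A1 had -1.07 ± 0.37 and -0.78 ± 0.31.

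RNA polymerase II pausing and elongation genes had 1 higher and 4 lower of 36 (2.78% and 11.1%), with a median of -0.09. LEO1, a subunit of the PAF1 elongation complex, had 44 and 44 reads in the WT pull-down and 47 and 17 in the KD pull-down (log2 change -0.94 ± 0.34), a pair that differed widely. NELFCD, a subunit of the pausing factor NELF, was at -0.83 ± 0.32. SUPT16H, a subunit of the histone chaperone FACT, and POLR2K, a subunit of the polymerase, were at 0.96 ± 0.44 and 0.98 ± 0.54. The 31 tested genes of the spindle and NuMA partners had 1 higher and 0 lower, with a median of -0.17 (-0.13 in input). PARD3, a polarity protein, was at 1.07 ± 0.54 and DCTN2, a dynactin subunit, at 0.82 ± 0.47. LMNB1, lamin B1, and DYNC1LI2, a dynein light intermediate chain, were at -0.78 ± 0.41 and -0.84 ± 0.48. Cell cycle and replication genes had 2 higher and 0 lower of 33, the higher ones being RB1 at 1.0 ± 0.48 and ORC5, of the origin recognition complex, at 0.99 ± 0.49. Heat shock and chaperone genes had 1 higher (HSPH1, 1.14 ± 0.55) and 0 lower of 18, and inflammatory and NF-kB genes 1 higher (LIF, 1.01 ± 0.42) and 0 lower of 25.

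Genes of tissue identity were read as DNA, not as expression, so they say nothing of which cells were present. The 20 retinal pigment epithelium markers had 1 higher and 2 lower. MITF, the pigment cell master regulator, had 18 and 8 reads in the WT pull-down and 40 and 33 in the KD pull-down (log2 change 1.03 ± 0.44), while SERPINF1, which encodes the secreted factor PEDF, was at -0.88 ± 0.31 and TTR at -1.03 ± 0.50. Photoreceptor markers had 0 and 0 of 16, with PDE6B at 0.74 ± 0.44. Immune cell markers had 0 higher and 2 lower of 22, with a median of -0.28 (-0.11 in input). Neuronal synapse genes had 2 higher and 1 lower of 17, with HOMER1 at 1.19 ± 0.48. Matrix and adhesion genes had 0 and 1 of 29, with COL3A1 at -1.17 ± 0.51, and HOX genes 0 and 0 of 21.

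Large gene families differed in their medians, with no member past the threshold. The 51 tested cytoplasmic ribosomal protein genes had a median of -0.29 in OGAP and -0.07 in input, but only 1 higher and 2 lower. Above 0 were 14 of 51, beside 8343 of 16476 over all windows. RPS2 was at 1.17 ± 0.48 in an overlapping window and RPLP0 at -0.69 ± 0.31. The 37 mitochondrial ribosomal protein genes had 3 higher and 4 lower, with a median of -0.15 (0.04 in input) and MRPL54 at -1.51 ± 0.52. The 160 olfactory receptor genes, which are clustered in gene arrays, had a median of 0.17 in OGAP and 0.11 in input, with 11 higher and 6 lower. OR10A5 had 2 and 6 reads in the WT pull-down and 24 and 16 in the KD pull-down (log2 change 1.84 ± 0.69). Keratin-associated protein genes had a median of 0.15, against 0.03 in input (2 higher and 3 lower of 87). Clustered protocadherin genes had one of 0.14, against 0.08 in input (3 and 0 of 48), with PCDHA2 at 1.39 ± 0.52. The 329 zinc finger (ZNF) genes had 13 higher and 25 lower, with a median of -0.02. ZNF99, of chromosome 19, held 48 and 38 reads against 34 and 18 (-1.19 ± 0.35), and ZNF644, of chromosome 1, held 8 and 1 against 30 and 20 (1.98 ± 0.63). The 35 tested histone genes, whose clustered windows often overlap and whose copies are alike, had 1 higher (H1-7, 1.43 ± 0.49) and 1 lower (H4C3, -1.05 ± 0.43).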

How the data were processed

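Genomic DNA of 8 RPE1 libraries had been sequenced, and the authors deposited raw counts of reads per promoter window and coverage signal summed over genes. Per the submitters' processing notes, BWA 0.7.17-r1188, bedtools, featureCounts and MACS2 were used with hg38. Windows were named by the single protein-coding RefSeq gene on their strand whose start was at most 500 bp from the centre (74.6%, against 1.58% after a 200 kb shift). Of all windows, 3741 overlap another.

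The 4 OGAP libraries were fitted alone with edgeR 4.0.16 (TMM, filterByExpr, quasi-likelihood test; R 4.3.3). Input and the difference of effects came from a fit of all 8 libraries. The common biological coefficient of variation was 0.199, with 2 residual and 749 prior degrees of freedom, so a window's error is mostly that of all windows. The test was tried on simulated counts with the same dispersion in all windows and changes only in windows at or above the median level. This does not cover changes in shallower windows or the spread of the real libraries. Sorting added 5 CPM to each value, and ties stayed in 1 quintile.

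The named windows were all those called, then those of lowest p in either direction, the highest levels, and up to 2 members per list and direction. NBPF1 was named after its values were seen. The comparison, the members and the 27 lists were chosen with earlier results of these data known. The result of 1 member of a list is not reported here. Alternatives used DESeq2 1.42.0, limma 3.58.1, other scalings and filters, thinning, and each replicate left out. Replicates of a group differed by more than sampling noise (chi-square over degrees of freedom 1.86 to 2.08).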

Additional observations from a re-analysis of the deposited data

Results flagged for a closer look

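The KD effect at AKIRIN1 differed between pulled-down and input DNA, by an interaction of 3.60 on the log2 scale (adjusted p = 0.0303, edgeR). Pulled-down reads were 3 and 2 in WT and 37 and 29 in KD, and input reads were 40 and 47 in WT and 28 and 32 in KD. The call did not hold in DESeq2 (adjusted p = 0.675) and was lost in 6 of 8 edgeR fits with a library left out, where its adjusted p ran from 0.0694 to 0.17.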

How the results depend on the processing

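The 11 windows called in OGAP depended on the settings, and the cause was not tested unless stated. The count was 7 with upper quartile scaling and 7 with total count scaling (4 higher and 3 lower each), 2 with DESeq2, 32 with limma-voom (1 higher and 31 lower), 6 in the fit of all 8 libraries, 5 without overlapping windows, 2 on autosomes without chromosomes 10 and 12, and 0 after thinning to the lowest total. Without mitochondrial windows, a setting chosen after seeing the data, it was 5. With each replicate left out it ranged from 0 to 22, where the lone library of a group was assumed to vary like the others. It was 11 with DESeq2 size factors, 12 with no count filter, and 11 with the replicate block, 10 of them among the main 11. The deviations of same-numbered OGAP libraries correlated at 0.02, so no shared deviation was seen. With so few reads per window, this cannot decide whether libraries of the same number share an origin. Of the windows at an unadjusted p under 0.05, 41.4% were higher in the main setting, 61.2% with upper quartile scaling and 53.7% with total count scaling, so the balance of directions at that level is not fixed by these data. The count of the effect on OGAP beside input, 1 in the main setting, was 3 with DESeq2 size factors, 3 with no count filter, 0 with DESeq2, 1 with the replicate block, and 0 to 6 with a replicate left out. For KD against WT in input it was 0 in every setting run. The medians of the highest and lowest quintiles by input reads differed by 0.12, and by -0.000118 to 0.251 with a replicate left out. Those by gene density differed by -0.161, by -0.223 in deciles, and by -0.196 to -0.17 with a replicate left out, settings added after seeing the data. Leaving out USP11 was likewise chosen after seeing the data. The coverage difference at gene starts stayed positive in all 7 alternatives. Among members named, the log2 change turned in sign with a replicate left out, ranging from -0.52 to 1.32 for NEIL3, -0.014 to 0.93 for ADPRS, -1.20 to 0.14 for ERCC3, -0.67 to 0.0303 for RAC2, -1.01 to 0.16 for DBF4B and -0.0811 to 0.60 for LYZ. For NEIL3 it was also -0.0473 after thinning. The check of G+C content was void, because 61% of tested windows had a promoter sequence and 80% was the minimum set, so the G+C corrections were not run. Depth limits what single windows can show, at medians of 17 to 28 reads.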
